A study of Mus musculus with 6 samples.

Results

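The promoters of Cdh1, St14 and Trp63 are 3 of the 235 promoter windows in a chromatin accessibility table of mouse limb explants, chosen by gene symbol as a readout of epithelial cells. How the 235 genes were selected is not stated. Centring, ranks and shares of all promoters below therefore refer to this set and not to the promoters of the genome. The assay was ATAC-seq, which reads open DNA as the places where Tn5 transposase can insert adapters. All 6 libraries were made from mouse limbs in explant culture at 1 day post amputation, wild type and of the outbred CD-1 strain. Of these, 3 were from culture at the air-liquid interface (ALI) and 3 from culture in 96-well plates. Per the labels' protocols, 4 limbs from each culture were collected and dissociated with trypsin, so epithelial and connective tissue nuclei were read together. It is not stated that the libraries of a culture came from separate animals, so p-values here cover only the variation between libraries, possibly technical.

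The limb bud is a core of mesenchyme under an ectodermal cover, and the ectoderm at its tip forms the apical ectodermal ridge, which keeps the bud growing. Cdh1 encodes E-cadherin, the adhesion molecule of epithelial junctions. St14 encodes matriptase, a serine protease in the membrane of epithelial cells that is needed for the barrier of the epidermis. Trp63 encodes p63, a transcription factor of the p53 family required for the epidermis and for limb outgrowth. Trp63 is transcribed from a promoter at the 5′ end of the gene and from an internal promoter, and the shorter ΔN isoforms made from the internal one prevail in basal epidermis. The table holds 1 Trp63 window, and the sources used here do not say which of these promoters it centres on. Its signal is therefore not known to be that of the internal promoter.

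The values are signal, that is coverage normalized to sequencing depth by the authors, averaged in 20 bp bins that reach 1000 bp to either side of the transcription start site (TSS). Build GRCm39 is named in the submitters' processing notes. The Cdh1 window lies on chromosome 8 around the TSS at 107329984 on the plus strand. The St14 window lies on chromosome 9 around the TSS at 31043150 on the minus strand. The Trp63 window lies on chromosome 16 around the TSS at 25502514 on the plus strand. All positions downstream of the TSS are in the direction of transcription. No annotation of that build was used, so exons and introns in the windows are not described.

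Whole libraries differed in level and in contrast. Mean signal over all promoters was 10.1 to 14.7 in the 96-well libraries and 11.8 to 18.6 in the ALI libraries, highest in ALI replicate 2. Relative depth, read from the step between low values, lay between 0.767 and 1.29 times the mean of the 6 libraries. The core of the window (200 bp on each side of the TSS) stood 4.57 to 5.09 times above the outermost 200 bp in 96-well libraries and 5.17 to 6.27 times in ALI libraries, over all promoters. The median log2 change of all promoters, ALI minus 96-well, was 0.14 on the deposited values, and 69 of the 235 promoters had a negative change. The part of these library differences in the results below was not tested.

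All 3 promoters were among the weaker ones of the table, and each had its own profile. Ranked from the strongest promoter, Cdh1 stood between 151 and 158 of 235 over the 6 libraries, St14 between 152 and 164, and Trp63 between 188 and 210. In coverage, the Cdh1 window held 37.0 to 75.8 reads per base, St14 31.1 to 65.8 and Trp63 8.93 to 22.7. Trp63 thus had the fewest reads of the 3.

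Cdh1 had a peak near the TSS and more signal downstream than upstream. Its upstream to downstream log2 ratio was −1.57 in ALI and −1.93 in 96-well libraries, against a median of −0.46 over 234 promoters. Its highest bin lay 10 to 50 bp downstream of the TSS in every library, with a signal between 14.3 and 26.3, and a shoulder followed at about 300 bp downstream, seen in the plot of profiles. The core held 45.5% ± 6.03 (SD, n = 3) of the window's signal in ALI and 44.7% ± 5.74 in 96-well libraries, where the median promoter held 38.3%.

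St14 had most of its signal inside the gene and not at the TSS. The 800 bp that begin 200 bp downstream of the TSS held 58.5% to 69.2% of the window's signal across libraries, against a median of 34.6% over the 234 promoters with signal in both outer parts of every library. By this share St14 ranked 14 from the top. Its highest bin lay between 350 and 970 bp downstream in 5 of the 6 libraries, and 10 bp upstream of the TSS in ALI replicate 2. The signal was still high at the downstream end of the window, 10.4 ± 1.24 (SD, n = 3) in 96-well and 8.28 ± 0.96 in ALI libraries over the last 200 bp.

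Trp63 had a low peak at the TSS and a second one within the gene. Its highest bin lay 50 or 70 bp upstream of the TSS in 5 libraries and 270 bp downstream in 96-well replicate 2, with a signal between 3.55 and 6.00. Of its 300 bin values in ALI libraries 7 were at 0, and of those in 96-well libraries 0 were.

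**Figure D1:**
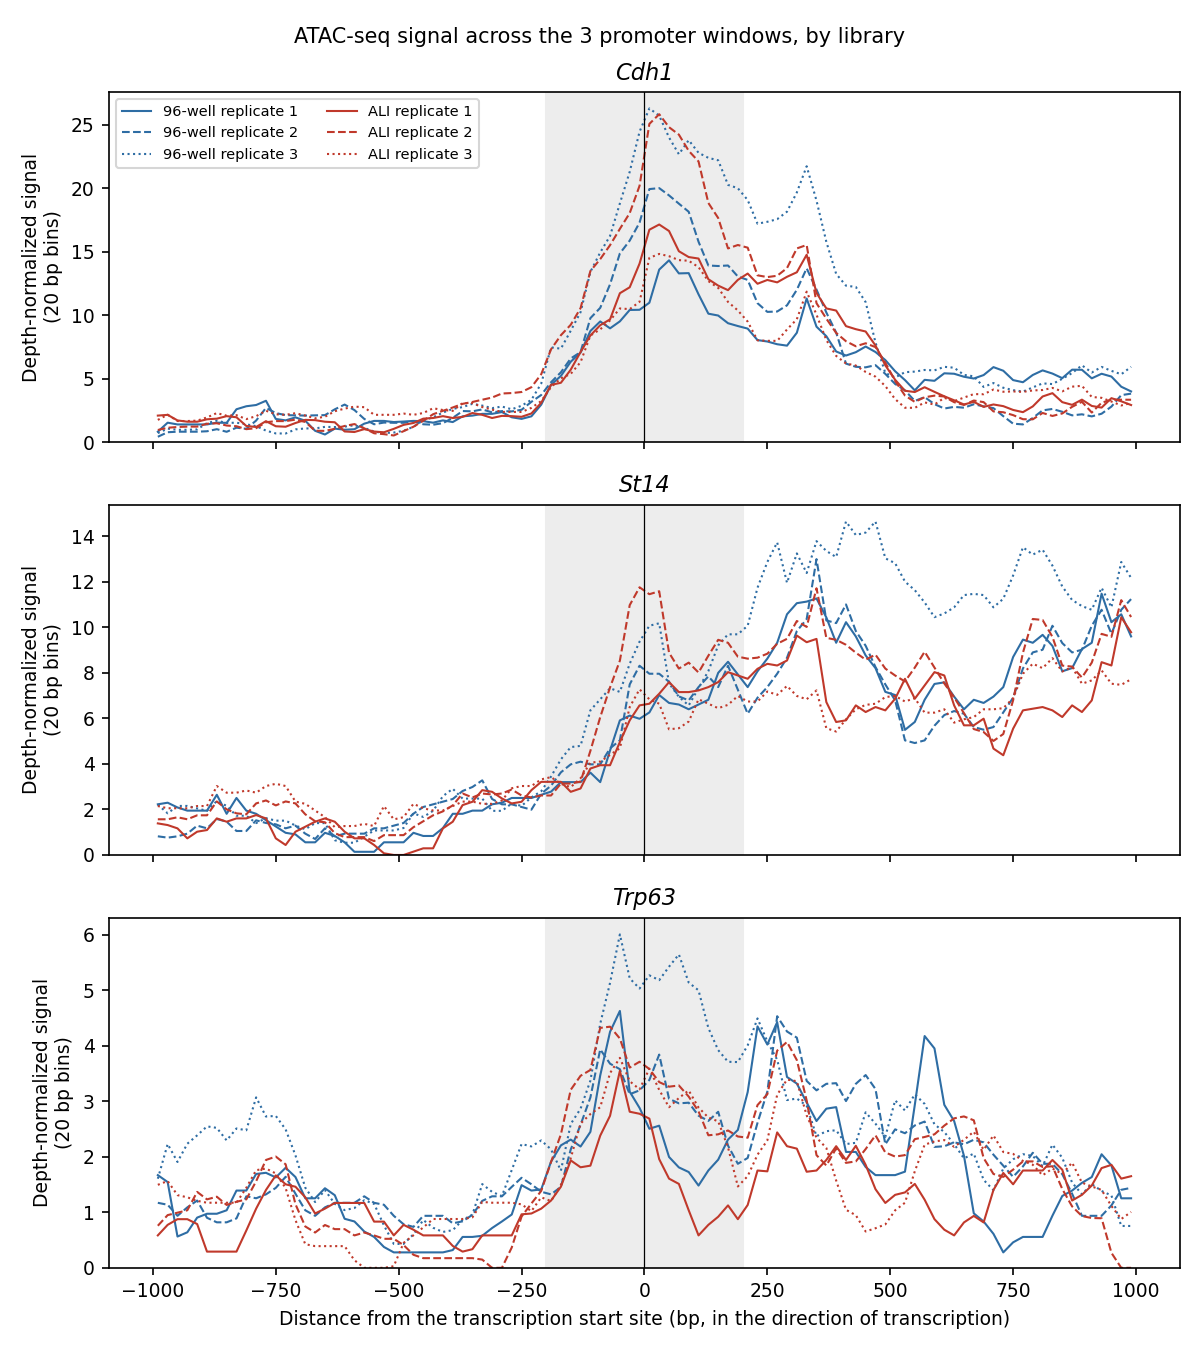
Depth-normalized ATAC-seq signal (y axis, 20 bp bins) against distance from the transcription start site in bp (x axis) at Cdh1, St14 and Trp63, with 1 line per library, ALI in red and 96-well in blue, and the core shaded. Cdh1 peaks just downstream of the start site in all 6 libraries, St14 keeps its signal to the downstream edge, and Trp63 stays at or below 6.00.

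The comparison of ALI with 96-well explants asks whether the windows of these 3 epithelial genes were less open in one culture. On the deposited values all 3 windows had lower means in ALI, none of them beyond the spread between libraries. In bulk tissue, fewer epithelial cells and less accessible promoters in each epithelial cell cannot be told apart.

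Cdh1 signal over the whole window was 5.14, 5.54 and 7.95 in replicates 1, 2 and 3 of the 96-well culture, against 5.47, 6.60 and 5.11 in those of ALI. The groups overlapped, with 96-well replicate 3 highest and ALI replicate 3 lowest. For St14, 96-well libraries had 5.17, 5.15 and 7.08 and ALI libraries 4.54, 5.69 and 4.77. Only ALI replicate 2 reached into the range of the 96-well libraries. For Trp63, 96-well libraries had 1.72, 1.97 and 2.44 and ALI libraries 1.30, 1.77 and 1.65. Here too ALI replicate 2 alone reached the 96-well range, just above the lowest 96-well library.

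Changes were tested with limma on log2(signal + 1.06), fitted over all 235 promoters with Benjamini-Hochberg adjustment, and are given as ALI minus 96-well in log2 units. The pseudocount of 1.06 is close to the Trp63 level and makes its change smaller than that of the signal itself. The Cdh1 change was −0.09 ± 0.21 (SE; 95% interval −0.50 to 0.33; limma adjusted p = 0.90). For St14 the change was −0.17 ± 0.20 (95% interval −0.57 to 0.22; limma adjusted p = 0.85). For Trp63 it was −0.24 ± 0.12 (95% interval −0.48 to 0.01; limma adjusted p = 0.81). By limma 0 of the 3 were called, 0 had an unadjusted p under 0.05, and 0% of all promoters were called in either direction. Without 96-well replicate 3 the Cdh1 change was 0.078, so its direction on this scale rested on that library, and the St14 change fell in size to −0.043.

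**Figure D2:**
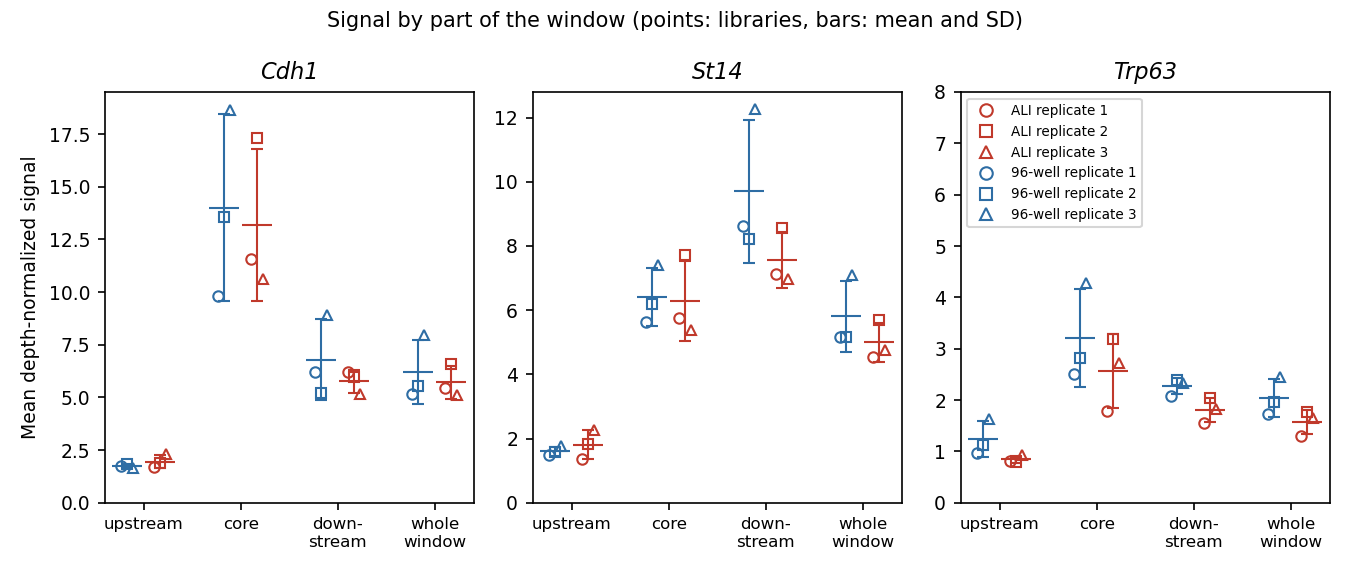
Mean depth-normalized signal (y axis) of Cdh1, St14 and Trp63 in the upstream, core and downstream parts and the whole window (x axis); points are libraries, horizontal marks are group means and bars are SD with n = 3. The ALI and 96-well libraries overlap in every part of Cdh1 and St14, and stand apart in the upstream and downstream parts of Trp63 on these deposited values.

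Set against the other promoters of the same library, all 3 stood lower in ALI explants, and St14 passed the test with a mean-variance trend in the fit. Each library was centred: the median, over promoters, of its log2 departure from the promoter's mean was subtracted. On this scale the St14 libraries lay at 2.87, 2.83 and 2.83 in 96-well and at 2.58, 2.37 and 2.56 in ALI explants, a change of −0.34 ± 0.11 (SE; limma adjusted p = 0.015). The lowest 96-well library stood above the highest ALI library. The centred Cdh1 levels were 2.87, 2.92 and 2.98 in 96-well and 2.80, 2.56 and 2.64 in ALI libraries, a change of −0.25 ± 0.11 that missed the threshold (limma adjusted p = 0.080). The centred Trp63 levels were 1.71, 1.79 and 1.61 in 96-well and 1.33, 1.12 and 1.45 in ALI libraries, a change of −0.40 ± 0.21 (limma adjusted p = 0.14). The groups did not overlap at any of the 3 promoters. ALI replicate 2 was the lowest library at each of them.

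Read against the table, 1 of the 3 was called lower by limma after centring, where 10.2% of all promoters were, and 3 of 3 had groups that did not overlap with ALI lower, where 17.4% of all promoters did. The median centred change of the 3 was −0.34, and that of all promoters was −0.03. The St14 call ended without ALI replicate 2 (−0.26, limma adjusted p = 0.13), without 96-well replicate 1 (−0.33, limma adjusted p = 0.083) and without 96-well replicate 2 (−0.35, limma adjusted p = 0.067). It also ended without the mean-variance trend of the fit (limma adjusted p = 0.066), where 0 promoters of the table were called. Without that trend the limma adjusted p was 0.065 for Trp63 (−0.40), about that of St14, and 0.13 for Cdh1 (−0.25). Cdh1 was called lower without ALI replicate 1 (−0.32, limma adjusted p = 0.024), where 24 of the 235 promoters were called lower. Leaving out any other library after centring did not give a Cdh1 call (limma adjusted p up to 0.29).

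Ranks within a library do not depend on the scaling of that library. Cdh1 ranked 151 to 153 in 96-well libraries and 154 to 158 in ALI libraries, so it was lower in each ALI library by a few places. St14 ranked 152 to 156 in 96-well and 158 to 164 in ALI libraries, again without overlap. Trp63 ranked 188 to 199 and 195 to 210, which overlap. For Cdh1 and St14 the exact two-sided permutation p was 0.1, the smallest that 3 libraries against 3 allow, and for Trp63 it was 0.3 by the same exact test. Groups with lower ranks in ALI and no overlap were found at 19.6% of all promoters.

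Weak promoters as a class stood lower in ALI after centring, which bears on all 3. Across the 235 promoters, the level and the centred change had a Spearman rho of 0.66, a description over promoters of the same libraries. Among the 58 promoters of lowest signal, which include Trp63, 55 had a negative centred change, with a median of −0.17. Among the next 59, which include Cdh1 and St14, 47 did, with a median of −0.12. Each of the 3 promoters had a centred change more negative than the median of these neighbours in level, a mark that splits the neighbours evenly. Their ranks among these neighbours are not given here. Cyclic loess, which removes the relation of level and change, left Cdh1 at −0.08 (limma adjusted p = 0.55), St14 at −0.16 (limma adjusted p = 0.16) and Trp63 at −0.22 (limma adjusted p = 0.11). After quantile normalization the changes were −0.11 at Cdh1 (limma adjusted p = 0.21), −0.22 at St14 (limma adjusted p = 0.084) and −0.19 at Trp63 (limma adjusted p = 0.24). So all 3 changes kept a negative sign under these scalings and none was called. After cyclic loess 114 of the 235 promoters had a negative change and 12.8% were called lower. Over the whole window St14 was called after centring, with or without a replicate block, and under none of the other scalings.

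**Figure D3:**
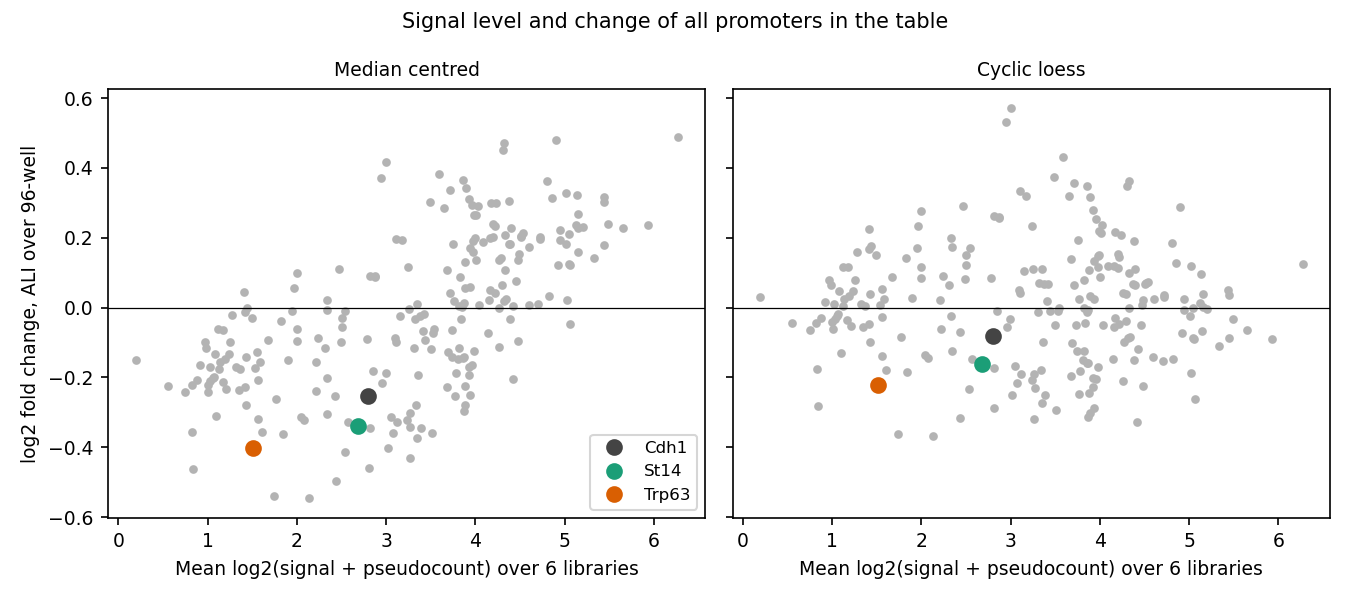
Log2 fold change, ALI over 96-well (y axis), against mean log2(signal + pseudocount) over the 6 libraries (x axis) for all 235 promoters, after median centring (left) and after cyclic loess (right), with Cdh1, St14 and Trp63 in colour. After centring the change rises with the level (Spearman rho 0.66), and the 3 promoters lie at −0.25, −0.34 and −0.40 among the weaker promoters.

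By part of the window, St14 was called lower in ALI in the downstream part, where most of its signal is, and not in the core. Downstream St14 signal was 8.63, 8.21 and 12.3 in 96-well replicates 1, 2 and 3, and 7.14, 8.55 and 6.97 in the ALI libraries, with ALI replicate 2 inside the 96-well range. Its centred change there was −0.36 ± 0.11 (SE; limma adjusted p = 0.017), and −0.30 after cyclic loess of that part (limma adjusted p = 0.023). In that part 5.11% of all promoters were called lower after centring, and St14 was 1 of 3 here. The share called after cyclic loess of that part is not given here. The deposited change was −0.31 ± 0.26 (limma adjusted p = 0.90). Downstream, St14 ranked 87 to 95 in 96-well and 108 to 119 in ALI libraries (exact permutation p = 0.1), and lower ranks without overlap occurred at 16.6% of promoters. The centred downstream call ended after quantile normalization of that part (−0.32, limma adjusted p = 0.055), without the trend (limma adjusted p = 0.079) and without any single library other than ALI replicate 1 (limma adjusted p between 0.056 and 0.092).

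The St14 core was close to level between the cultures on the deposited values, at 5.63, 6.18 and 7.40 in 96-well and 5.75, 7.71 and 5.39 in ALI libraries. The deposited core change was −0.03 ± 0.26 (95% interval −0.54 to 0.48; limma adjusted p = 0.95), and its sign turned after quantile normalization (0.027). After centring it was −0.28 (limma adjusted p = 0.25), and the ALI libraries lay below all 96-well libraries, as they did downstream. After centring such groups were found at 17.4% of all promoters in the core and at 12.8% downstream. The core held 25.0% ± 2.24 (SD, n = 3) of the St14 window in ALI and 22.2% ± 1.62 in 96-well libraries. This difference of 2.79 percentage points gave an exact two-sided permutation p = 0.2 (Benjamini-Hochberg adjusted 0.6 over 6 shape measures), and the median difference over promoters was 1.97 points. A difference between the parts was therefore not established for St14.

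At Cdh1 the core peak was 9.82, 13.6 and 18.6 in 96-well and 11.6, 17.3 and 10.6 in ALI libraries, a wide and overlapping range in each culture. The deposited core change was −0.07 ± 0.31 (limma adjusted p = 0.95), and after centring it was −0.32 ± 0.13 (limma adjusted p = 0.068). In the core 0 of the 3 promoters were called lower by limma after centring, where 11.5% of all promoters were. Without 96-well replicate 1 the centred Cdh1 core was called lower (−0.45, limma adjusted p = 0.013), and the share of all promoters called in that fit is not given here. Leaving out any other library did not give this call (limma adjusted p up to 0.32). Downstream of the core, Cdh1 signal was 6.20, 5.23 and 8.92 in 96-well and 6.19, 5.97 and 5.15 in ALI libraries. After centring that change was −0.23 (limma adjusted p = 0.20). All 40 downstream bins of Cdh1 had a lower mean in ALI, as did all 40 of St14, but neighbouring bins share reads and are not separate measurements, and 48.6% of downstream bins over all promoters were lower. Upstream of the core both genes had low signal, 1.64 to 2.30 at Cdh1 and 1.35 to 2.25 at St14, and their centred changes there were 0.07 and 0.06.

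Trp63 had a lower mean in ALI in each part of its window, and which parts had libraries without overlap turned on the scaling. Upstream signal was 0.96, 1.13 and 1.63 in 96-well and 0.82, 0.79 and 0.92 in ALI libraries, which did not overlap. Downstream signal was 2.09, 2.39 and 2.34 in 96-well and 1.56, 2.03 and 1.83 in ALI libraries, again without overlap. On the deposited values, such groups with ALI lower were found at 7.23% of promoters upstream and at 3.4% downstream. The Trp63 core was 2.50, 2.83 and 4.29 in 96-well and 1.78, 3.18 and 2.73 in ALI libraries, which overlapped. After centring, Trp63 libraries overlapped downstream and not in the core or upstream, where 9.36% of all promoters had ALI below all 96-well libraries. Downstream, Trp63 ranked 176 to 183 in 96-well and 184 to 196 in ALI libraries, and upstream 187 to 214 and 218 to 221. Neither pair overlapped (exact permutation p = 0.1 each). Core ranks overlapped, 180 to 190 and 185 to 201 (exact permutation p = 0.5). Lower ranks without overlap occurred at 16.6% of promoters downstream, and the upstream share is not given here. Deposited changes were −0.26 ± 0.13 upstream (limma adjusted p = 0.58), −0.23 ± 0.21 in the core (limma adjusted p = 0.66) and −0.22 ± 0.16 downstream (limma adjusted p = 0.87). None was called by limma, and none was after centring either (adjusted p between 0.13 and 0.40), where limma called 1.7% of all promoters lower upstream, 11.5% in the core and 5.11% downstream. The upstream part of Trp63 held 5.59 to 15.1 reads per base; the part of depth in these results was not tested.

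In blocks of 200 bp, ALI libraries lay below all 96-well libraries in 3 of the 30 blocks of the 3 windows, against 5.74% of all blocks in the table. These were the last block of St14 and the 2 Trp63 blocks from 200 to 600 bp downstream of the TSS. The first of these Trp63 blocks, which holds its second peak, had a signal of 3.35 ± 0.08 (SD, n = 3) in 96-well and 2.43 ± 0.51 in ALI libraries. In 0 of the 30 blocks did the ALI libraries lie above all 96-well libraries, against 4.64% in the table.

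**Figure D4:**
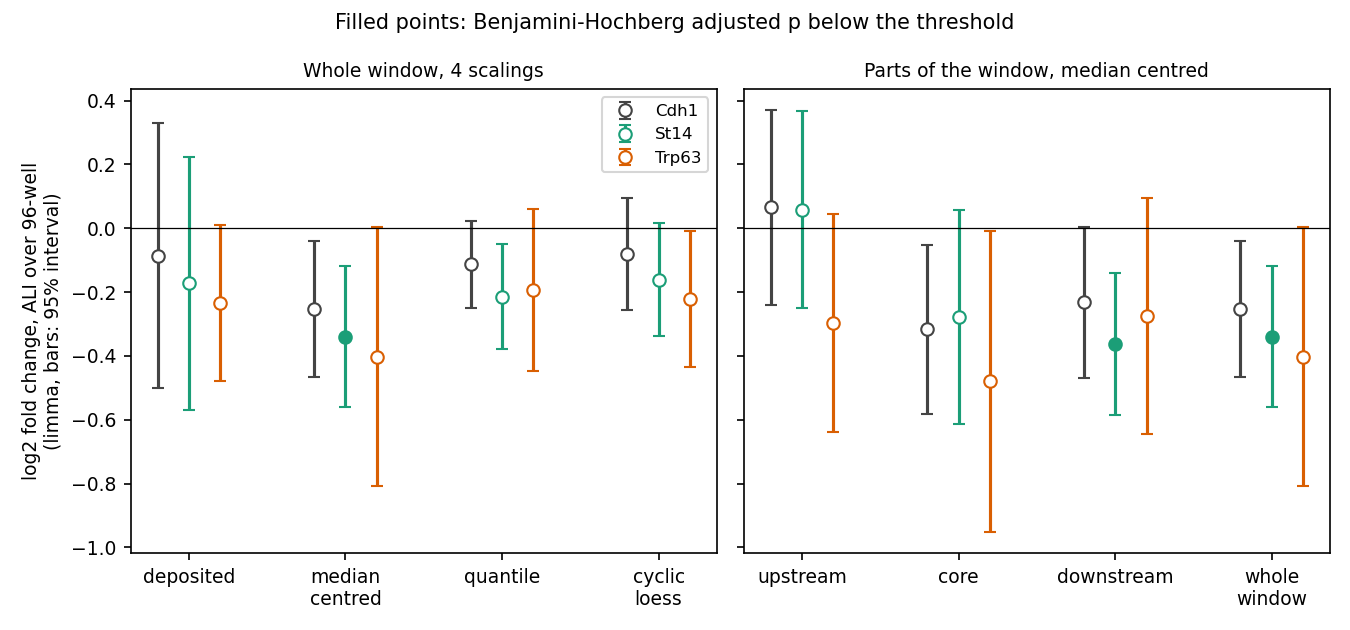
Log2 fold change, ALI over 96-well (y axis, limma), of Cdh1, St14 and Trp63 for the whole window under 4 scalings (left) and for the parts of the window after median centring (right); bars are 95% intervals and filled points have an adjusted p below 0.05. St14 is filled after centring for the whole window (−0.34) and the downstream part (−0.36), and the other points are open.

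Few other genes in the table bear on the epithelial share. Of 74 epithelial junction and epidermal genes listed for this purpose, these 3 alone were in the table, so keratin, desmosome and claudin promoters were not read here. Of 29 limb ectoderm and ridge genes 22 were measured. After centring 19 of them had a negative change, 7 were called lower and 0 higher by limma, with a median of −0.20. Of all 235 promoters 131 had a negative centred change, with a median of −0.03, and 10.2% were called lower. This list also held more of the weaker promoters: 14 of its 22 were among the 117 of lowest signal. After cyclic loess 15 of the 22 were negative, with a median of −0.12, and 7 were called lower and 0 higher by limma, where 12.8% of all promoters were called lower. The 4 with the lowest p were Fgf8 (−0.40), the main growth factor of the ridge, Rspo2 (−0.36), a secreted enhancer of Wnt signalling, the homeobox gene Dlx2 (−0.34) and Bmp4 (−0.36), a bone morphogenetic protein. On the deposited values their list had a median of −0.04, with 12 of 22 negative and 0 called by limma.

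Relative to the mean of these 22 ectoderm promoters in the same library, the ALI and 96-well libraries stood apart at St14 and overlapped at Cdh1 and Trp63. St14 stood at −0.39 ± 0.05 (SD, n = 3) log2 units in 96-well and −0.56 ± 0.08 in ALI libraries, without overlap. Of the 213 promoters outside the list, 4.69% had ALI below all 96-well libraries on this measure. Cdh1 stood at −0.32 ± 0.04 and −0.40 ± 0.07, which overlapped. Trp63 stood at −1.53 ± 0.12 and −1.76 ± 0.16, which overlapped as well.

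Of 48 limb mesenchyme and connective tissue genes, 3 were in the table, and their changes went in both directions. Centred changes were 0.27 for the fibronectin gene Fn1 (limma adjusted p = 0.051), −0.19 for the homeobox gene Msx1 (limma adjusted p = 0.12) and −0.17 for the Wnt ligand gene Wnt5a (limma adjusted p = 0.16). By limma 0 of these 3 were called after centring, where 10.2% of all promoters were called lower. After cyclic loess 2 of the 3 were called lower by limma, where 12.8% of all promoters were. Against their mean in each library, Cdh1 stood at −1.37 ± 0.06 (SD, n = 3) log2 units in 96-well and −1.60 ± 0.22 in ALI libraries, St14 at −1.45 ± 0.11 and −1.76 ± 0.22, and Trp63 at −2.59 ± 0.19 and −2.96 ± 0.28. Of the 3, St14 had ranges that did not overlap; of the 232 promoters other than the mesenchyme ones, 10.8% had ALI below all 96-well libraries on this measure. The mesenchyme promoters are stronger than the 3 epithelial ones, as these negative values show, so the relation of level and change touches this ratio. Of 32 blood, vessel, muscle and nerve genes 0 were in the table, so other cell types of the explants could not be read.

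After centring, the levels of the 3 promoters were correlated over the 6 libraries, with ALI below 96-well at each. Within the 96-well libraries they did not move together: replicate 3 was the highest of these for Cdh1 (2.98) and the lowest for Trp63 (1.61). Values of r over all pairs of promoters are not given here. Over the 6 libraries the Pearson r was 0.92 between Cdh1 and St14, 0.95 between St14 and Trp63 and 0.82 between Cdh1 and Trp63, a description of points that share libraries and groups. Nearest to Cdh1 over these libraries were Bmp4 (r = 0.98), Unc13d (0.96) and Dkk1 (0.96). Nearest to St14 were Bcl10 (0.99), Gm9918 (0.96) and Trp63 (0.95), and nearest to Trp63 were Gm9918 (0.99), Gm10804 (0.99) and Bcl10 (0.97). These neighbours had centred changes of −0.33 to −0.55.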

How the data were processed

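Per the labels, ATAC-seq was run on 6 libraries (ALI and 96-well, 3 each) with paired ends. The submitters' processing notes name build GRCm39 and the tools deepTools 3.5.1, Picard, Bowtie2 2.5.1, Trim Galore 0.6.10 and SAMtools 1.16.1, giving no role. The deposited values are signal, that is coverage normalized to depth by the authors, in 20 bp bins, per the file headers. The sources used here give no formula, Tn5 shift or duplicate filter. A shift moves profiles by less than 1 bin.

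Bins were averaged over the window, the core (200 bp on each side of the TSS) and the 800 bp on either side of it. Levels were tested as log2(signal + 1.06), the pseudocount being 0.1 of the median promoter signal, with limma 3.58.1 (R 4.3.3, eBayes with trend) over all 235 promoters, ALI minus 96-well, Benjamini-Hochberg threshold 0.05. The fit was tested on simulated data. The prior degrees of freedom were infinite for the whole window on the deposited and centred values, so the trend set each variance there. It did not do so after quantile normalization or cyclic loess, so p-values across scalings rest on unlike variance estimates. Reads per base were obtained from the step between low values (100% whole to within 0.1 of a step); total depth is unknown. Shape measures and ranks were compared by exact permutation over 20 assignments. No 2 libraries held the same values (at least 99.5% of bins differed).

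The members and gene lists were chosen with earlier results of these data known. The named genes were the 3 members, the 3 promoters nearest to each by Pearson r over the centred libraries, and up to 4 measured genes of each list by centred p. Alternatives were other pseudocounts, scalings, filters and variance models, a replicate block and leaving out each library. Quantile normalization, cyclic loess, the fit without trend and leaving out libraries after centring were added for the parts of the window after seeing the data. A planned motif search was not run because promoter sequences of the 3 genes were not used here.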

Additional observations from a re-analysis of the deposited data

How the results depend on the processing

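On the deposited values 0 promoters were called by limma with other pseudocounts, without the promoters of lowest signal, without trend, with the replicate block and without each library. Median centring called 51, quantile normalization 38, equal flank signal 73 and cyclic loess 61, and centring with the replicate block 39. Centring without the trend called 0. Leaving out 1 library gave 0 to 58 calls over both scales (22 to 58 after centring). The whole-window change of St14 was called after centring (−0.34, limma adjusted p = 0.015) and after centring with the replicate block (−0.34, limma adjusted p = 0.028), and not after equal flank signal (−0.26, limma adjusted p = 0.054). Without 1 library, over both scales together, it was −0.38 to −0.043, that of Cdh1 −0.32 to 0.078 and that of Trp63 −0.48 to −0.14. After centring alone the ranges were −0.38 to −0.26 for St14, −0.32 to −0.18 for Cdh1 and −0.48 to −0.29 for Trp63. The Cdh1 change turned positive on the deposited values only. Under all 22 alternatives the Trp63 change was negative and not called; it had no value with the promoters of lowest signal left out. The replicate numbers are shared between cultures, and the labels do not say whether they pair the libraries. Same-numbered deviations had r = 0.67, −0.61 and −0.60, and 1 of the 3 pairs correlated best with its own number. With 3 libraries per culture these values cannot settle whether the libraries are paired. The block changed no call on the deposited values.

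Directions turned for small changes of parts. The St14 core was 0.027 after quantile normalization and 0.016 with a core of 100 bp on each side. Without 1 library, over both scales together, changes ranged from −0.45 to 0.14 (Cdh1 core), −0.34 to 0.064 (St14 core) and −0.34 to 0.013 (Cdh1 downstream). Upstream they ranged from −0.029 to 0.17 (Cdh1) and −0.064 to 0.21 (St14). After centring alone the ranges were −0.45 to −0.25 (Cdh1 core), −0.34 to −0.24 (St14 core) and −0.34 to −0.14 (Cdh1 downstream). Of these changes, only the upstream ones turned sign after centring, at −0.029 to 0.14 (Cdh1) and −0.064 to 0.15 (St14). The core share ranged from −2.69 to 2.94 points (Cdh1) and −0.77 to 3.60 points (Trp63), and the upstream to downstream log2 ratio of Trp63 from −0.29 to 0.0083. The St14 downstream change was called after centring (−0.36) and cyclic loess (−0.30). The causes were not tested.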
